A study of Mus musculus with 3 samples.

Results

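A set of 48 genes of the endoplasmic reticulum (ER) stress response, the ER folding machinery and the coats of the secretory pathway was followed through 3 stages of lung mesenchymal stromal cells (LMSCs). The genes were taken by symbol from the table of 34742 genes, and all 48 were found. The list comprised 11 ER chaperones and co-chaperones, 3 protein disulfide isomerases, 6 sensors and transcription factors of the unfolded protein response, 2 targets of ATF4 and CHOP, 4 factors of ER-associated degradation, 3 translocon genes, 10 genes of the COPII coat, 7 genes of the COPI coat and 2 KDEL receptors. RNA-seq was done on LMSCs of MMTV-PyMT mice on the FVB/N background, in which a mouse mammary tumour virus promoter drives the polyoma middle T oncogene in mammary epithelium. There was 1 library per stage: A-LMSC from the adenoma stage at 7 weeks of age, PM-LMSC from the pre-metastatic stage at 11 weeks and M-LMSC from the metastatic stage at 13 weeks. All 3 came from adherent lung cells depleted of CD45+ leukocytes and grown in serum-containing medium. Stage and age cannot be told apart in this design, and no library has a replicate check.

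Proteins bound for secretion enter the ER through the Sec61 channel and fold with the help of chaperones such as BiP and of disulfide isomerases. They leave in COPII vesicles, while COPI vesicles and KDEL receptors bring escaped residents back. When unfolded proteins accumulate, the sensors IRE1, PERK and ATF6 act through XBP1, ATF4 and cleaved ATF6 to raise folding and degradation genes, and mesenchymal cells, which secrete collagen, use this machinery heavily.

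The libraries held 13479898 counts for A-LMSC, 12594155 for PM-LMSC and 14338909 for M-LMSC. Levels are given as CPM, the counts set relative to a library total scaled by TMM factors, which were 0.818, 1.02 and 1.20. Fold differences are log2 ratios of (CPM + 1), and a gene was counted as higher or lower where the ratio was at least 2-fold and the higher library reached at least 1 CPM. Intervals are 95% intervals for counting error only. The LMSC markers Itgb1, Cd44, Pdgfra, Nes and Ly6a together reached 197 CPM in A-LMSC, 3362 CPM in PM-LMSC and 2889 CPM in M-LMSC. Itgb1 gave 42.6, 1846 and 2074 CPM of these, and Nes 60.0, 966 and 362 CPM. Cd44 had 55.1, 303 and 262 CPM and Pdgfra 30.8, 230 and 137 CPM. Ly6a had 8.88, 17.3 and 54.8 CPM and lay within 2-fold between A-LMSC and PM-LMSC. The GC trend described below was not removed from marker levels. The 8 epithelial markers Krt7, Krt8, Krt14, Krt18, Epcam, Cdh1, Cldn4 and Csn3 reached 14.5, 74.8 and 1224 CPM, in that order. All 8 had counts in M-LMSC. The milk protein gene Csn3 had 0 CPM in A-LMSC and PM-LMSC and 14.7 CPM in M-LMSC. Whether these counts came from mammary or other epithelial cells was not tested. The 4 lung epithelial markers, led by surfactant protein genes, reached 110 CPM in A-LMSC, were all at 0 in PM-LMSC and reached 3.60 CPM in M-LMSC. The 5 leukocyte markers stayed at or below 18.1 CPM, with Ptprc, which encodes CD45, at 0.52 CPM or less, and the 4 endothelial markers at or below 15.3 CPM. The part of these cells in the results was not tested, and in bulk RNA fewer cells of a type and less RNA per cell cannot be told apart.

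Between A-LMSC and the later stages the 48 genes differed in both directions. The 3 stress sensors, 12 of the 17 coat genes in PM-LMSC and 10 in M-LMSC, and 5 chaperones were at least 2-fold higher. Trib3 and Chac1, the ATF4 and CHOP targets in the set, other chaperones and, in M-LMSC, both Sec61 genes were at least 2-fold lower. Relative to A-LMSC, PM-LMSC had 23 of the 48 genes at 2-fold higher or more, where 35.0% of the 12727 genes measured were. A further 8 genes were at least 2-fold lower, against 25.0% of all genes. The median log2 ratio of the 48 genes was 0.50, and that of all genes was 0.19. In M-LMSC, 21 of 48 genes were at least 2-fold higher than in A-LMSC, against 41.0% of 13223 genes, and 17 were at least 2-fold lower, against 27.7%. The median log2 ratio was 0.32 for the 48 genes and 0.34 for all genes. M-LMSC and PM-LMSC lay closer together, with 4 of 48 genes higher in M-LMSC, against 17.3% of 13181 genes, and 5 lower, against 7.85%. In that step the median log2 ratio was -0.40 for the 48 genes and 0.03 for all genes. Scaled by the library total alone, 24 genes were higher and 10 lower in M-LMSC than in A-LMSC, and 5 were higher and 2 lower than in PM-LMSC. Of all genes, that scaling put 47.4% higher and 13.7% lower than in A-LMSC, and 21.5% higher and 5.18% lower than in PM-LMSC. Both comparisons with A-LMSC share that library and are not independent of each other.

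**Figure D1:**
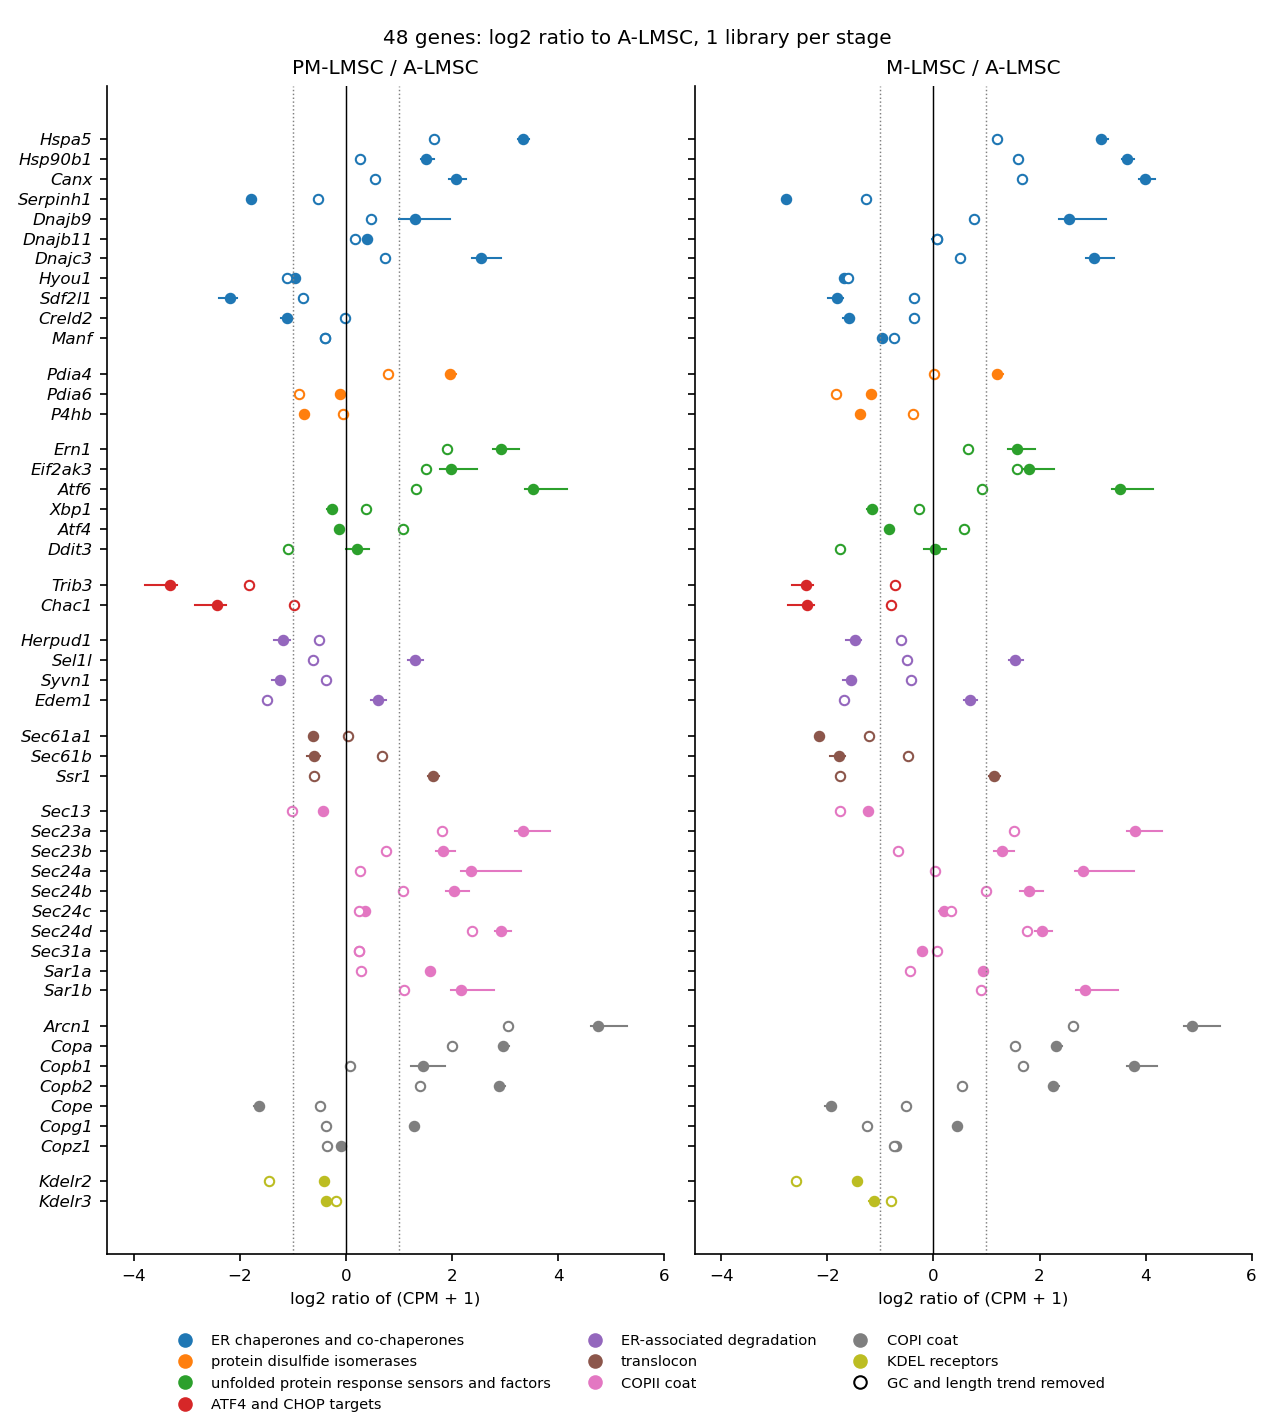
Log2 ratios of (CPM + 1) of the 48 genes to A-LMSC, grouped by role, for PM-LMSC (left) and M-LMSC (right), with filled points for the ratio, lines for the 95% counting interval of the ratio of CPM, open points for the ratio after the trend with GC content and length was removed, and dotted lines at 2-fold. Arcn1 lies farthest to the right at 4.76 and 4.87, Trib3 farthest to the left in PM-LMSC at -3.32 and Serpinh1 in M-LMSC at -2.78.

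The ratios followed the base composition of the transcripts, in these genes as in the whole table. Over the 48 genes, the log2 ratio and the GC content of the longest transcript had a Spearman correlation of -0.757 when PM-LMSC, and -0.848 when M-LMSC, was set against A-LMSC, and -0.412 for M-LMSC against PM-LMSC. Over all measured protein-coding genes the values were -0.629, -0.712 and -0.389. These points are genes that share the same libraries and are not replicates. Over all genes, at any GC content, 35.0% were at least 2-fold higher and 25.0% lower in PM-LMSC, and 41.0% and 27.7% in M-LMSC. These shares were not counted within ranges of GC content. Of the 24 genes with a GC content under the median of 50.0%, PM-LMSC had 19 at least 2-fold higher than A-LMSC and 0 lower, and 17 were higher and 3 lower in M-LMSC. Of the 24 genes above it, 4 were higher and 8 lower in PM-LMSC, and 4 were higher and 14 lower in M-LMSC. A second value is therefore given beside the ratios, the log2 ratio left after the trend of all protein-coding genes with GC content and transcript length was subtracted. That step did not take out the whole relation in the 48 genes, whose trend-removed ratios to A-LMSC still had Spearman correlations with GC content of -0.351 and -0.327, beside 0.058 and 0.074 over all protein-coding genes. On that scale PM-LMSC exceeded A-LMSC by at least 2-fold in 12 of the 48 genes, against 18.9% of all genes, and 6 were lower, against 17.1%. In M-LMSC, 9 were higher and 10 lower than in A-LMSC, each against 18.8% of all genes. Against PM-LMSC, 4 were higher in M-LMSC, with 10.9% of all genes, and 6 were lower, with 8.92%. Whether base composition or the stage set the ratios was not tested.

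**Figure D2:**
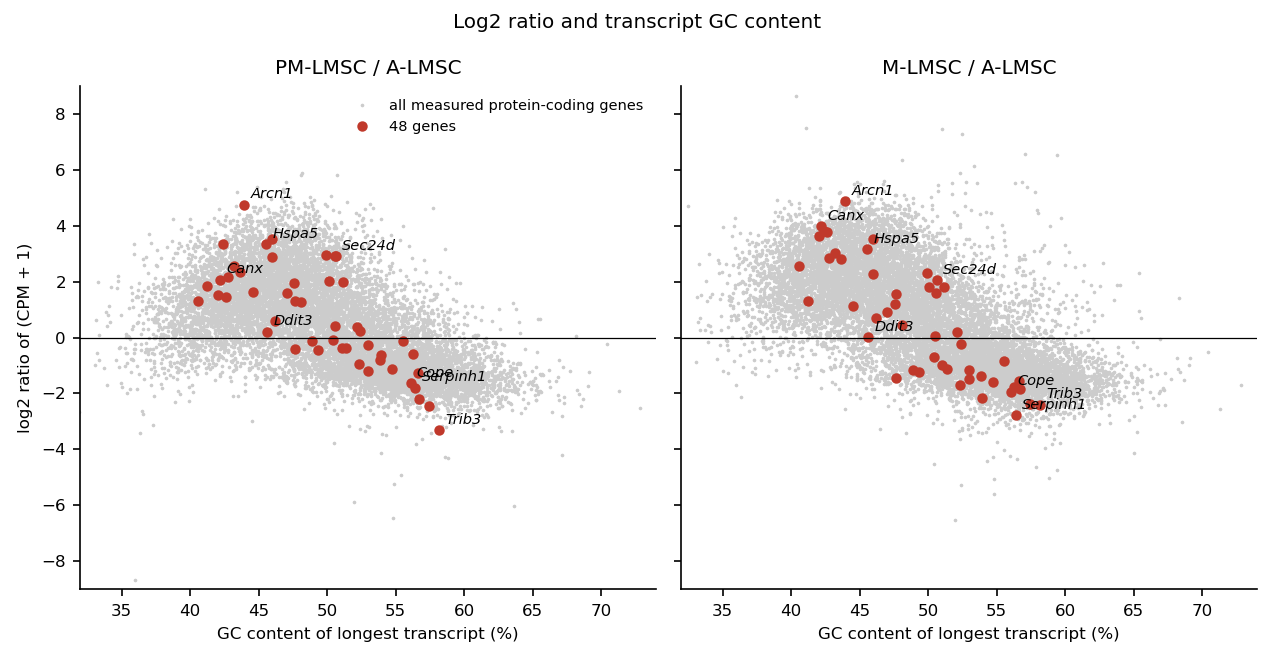
Log2 ratio of (CPM + 1) to A-LMSC against the GC content of the longest transcript in percent, for PM-LMSC (left) and M-LMSC (right), with the 48 genes in red over all measured protein-coding genes in grey. Genes of low GC content such as Arcn1 and Canx lie above 0 and genes of high GC content such as Trib3, Serpinh1 and Cope lie below it, and the grey points also run from upper left to lower right.

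The COPI coat, or coatomer, buds vesicles from the Golgi for transport back to the ER. Of its 7 subunit genes, 5 exceeded A-LMSC by at least 2-fold in PM-LMSC and 4 in M-LMSC, and only Cope was at least 2-fold lower in either. Of all genes, 35.0% and 41.0% were as much higher, and on the trend-removed scale 3 of the 7 were, in each library. On that scale 0 were at least 2-fold lower in PM-LMSC and 1, Copg1, in M-LMSC. The median log2 ratios of the 7 genes were 1.45 and 2.26, and 0.08 and 0.55 with the trend removed. Arcn1, the delta subunit, had the highest ratio of all 48 genes. It had 6.89 CPM in A-LMSC (76 counts, 95% interval 5.43 to 8.62), 212 CPM in PM-LMSC and 229.7 CPM in M-LMSC. A-LMSC was thus the low library, and the log2 ratios were 4.76 and 4.87. Removing the trend left them at 3.05 and 2.63, the largest of the 48 genes in both comparisons.

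Copa, the alpha subunit, had 88.3 CPM in A-LMSC, 697 CPM in PM-LMSC and 444 CPM in M-LMSC. Copb2, the beta-prime subunit that binds cargo signals together with alpha, had 86.6, 650.5 and 419 CPM in the same order. Both were low in A-LMSC and highest in PM-LMSC, with log2 ratios of 2.97 and 2.32 for Copa and of 2.90 and 2.26 for Copb2. The trend-removed ratios were 2.01 and 1.54 for Copa and 1.40 and 0.55 for Copb2, so the M-LMSC value of Copb2 came to lie within 2-fold. Copb1, the beta subunit, had 9.88 CPM in A-LMSC, 28.8 CPM in PM-LMSC and 149.6 CPM in M-LMSC. Unlike Copa and Copb2 it was highest in M-LMSC, where its CPM was 5.20-fold that in PM-LMSC (log2 ratio of (CPM + 1) 2.34, and 1.64 with the trend removed). Copg1, a gamma subunit, had 193, 469.6 and 264 CPM. It was at least 2-fold higher in PM-LMSC alone (log2 ratio 1.28). The trend-removed values had the opposite sign, -0.38 in PM-LMSC and -1.25 in M-LMSC, the latter past 2-fold. Copz1, a zeta subunit, had 182, 172 and 111 CPM and stayed within 2-fold throughout. Cope, the epsilon subunit, had 345 CPM in A-LMSC, 110.2 CPM in PM-LMSC and 89.4 CPM in M-LMSC. It was highest in A-LMSC, with log2 ratios of -1.64 and -1.94, which came to -0.49 and -0.52 with the trend removed.

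Coatomer is assembled from equal numbers of its subunits, and their mRNA levels per length lay far apart in A-LMSC. On the FPKM scale, from Arcn1 at 0.858 to Copz1 at 89.4, the highest level was 104-fold the lowest. In PM-LMSC the levels ran from Copb1 at 8.81 to Copz1 at 104.7 FPKM, an 11.9-fold spread. In M-LMSC they ran from Cope at 13.8 to Copz1 at 79.9 FPKM, a 5.79-fold spread. The A-LMSC spread rests on Arcn1, with 76 counts, and the next lowest gene there was Copb1 at 2.44 FPKM. The trend with GC content was not removed from FPKM. Spreads were also smaller at the later stages for the COPII genes, at 589-, 127- and 58.0-fold in stage order. For the ER chaperones and co-chaperones they were 982-, 96.5- and 27.5-fold. The COPI genes took 0.0746% of all A-LMSC counts (exact binomial interval 0.0732% to 0.0761%), 0.238% of those in PM-LMSC and 0.205% of those in M-LMSC.

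The COPII coat carries cargo out of the ER. Among its 10 genes, PM-LMSC exceeded A-LMSC by at least 2-fold in 7 and was 2-fold lower in 0, and in M-LMSC 6 were higher and 1, Sec13, was lower. The shares of all genes were 35.0% higher and 25.0% lower in PM-LMSC and 41.0% and 27.7% in M-LMSC. Trend removal gave 4 of the 10 higher and 1 lower in PM-LMSC, and 2 higher and 1 lower in M-LMSC. The median log2 ratios were 1.94 and 1.55, and 0.52 and 0.20 with the trend removed. Their share of all counts was 0.0939%, 0.193% and 0.164%, in the order of the stages. Sec23a and Sec23b encode alternative forms of the inner coat subunit that activates the GTPase SAR1. Sec23a had 7.43 CPM in A-LMSC (95% interval 5.91 to 9.23), 84.4 CPM in PM-LMSC and 116.7 CPM in M-LMSC. Sec23b had 26.5, 97.2 and 66.5 CPM. Both were lowest in A-LMSC, with log2 ratios of 3.34 and 3.80 for Sec23a and of 1.84 and 1.30 for Sec23b. The trend-removed ratios were 1.82 and 1.52 for Sec23a but 0.76 and -0.67 for Sec23b. On the FPKM scale, Sec23a made up 26.7% of the summed level of the pair in A-LMSC, then 52.9% and 69.4% at the later stages.

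Sec24 proteins select the cargo. Sec24d had 33.2 CPM in A-LMSC, 259 CPM in PM-LMSC and 140.4 CPM in M-LMSC. Its transcript has a GC content of 50.6%, near the median, and its log2 ratios of 2.93 and 2.05 came to 2.38 and 1.76 with the trend removed. Sec24b had 18.9, 80.9 and 68.4 CPM, with log2 ratios of 2.04 and 1.80, and 1.07 and 0.99 with the trend removed. Sec24a was the lowest of the coat genes per length (0.161 FPKM in A-LMSC), with 2.81 CPM in A-LMSC (31 counts), 18.5 CPM in PM-LMSC and 25.9 CPM in M-LMSC. Its log2 ratios of 2.36 and 2.82 came to 0.27 and 0.03 with the trend removed. Sec24c had 130.4, 168 and 149.5 CPM and lay within 2-fold throughout. The make-up of the 4 Sec24 genes differed between the libraries. On the FPKM scale, Sec24c made up 83.0% of their summed level in A-LMSC, then 49.0% and 57.2% at the later stages. Sec24d made up 10.5%, 37.5% and 26.7%.

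Sar1a and Sar1b encode the GTPases that start the coat. Sar1a had 143 CPM in A-LMSC, 430.0 CPM in PM-LMSC and 274 CPM in M-LMSC, and only the PM-LMSC ratio, 1.58 on the log2 scale, reached 2-fold, with 0.28 after trend removal. Sar1b had 5.35, 27.7 and 45.1 CPM, with log2 ratios of 2.18 and 2.86, and 1.09 and 0.90 with the trend removed. Its share of the summed FPKM of the pair was 6.58%, 10.9% and 23.7%, in the order of the stages. The outer coat genes behaved otherwise. Sec31a had 344, 408 and 296 CPM and stayed within 2-fold. Sec13, which also serves in the nuclear pore, had 435, 323 and 185 CPM and a log2 ratio of -1.23 in M-LMSC against A-LMSC, or -1.75 with the trend removed.

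**Figure D3:**
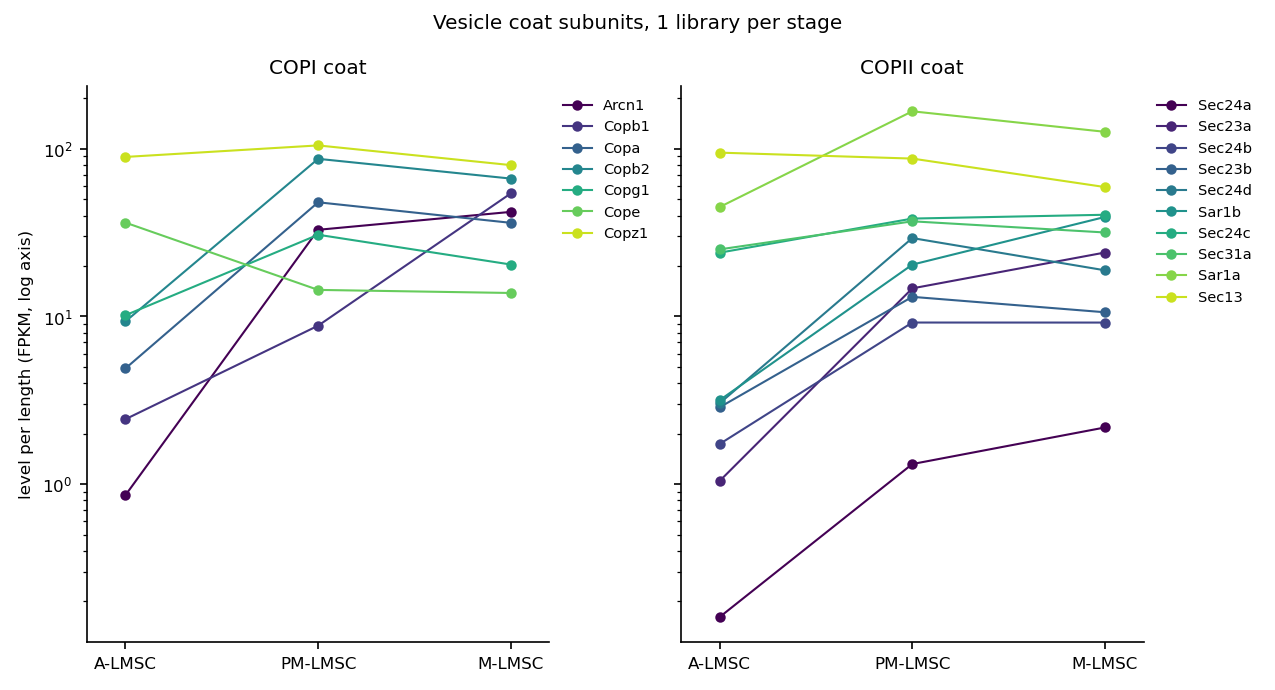
Levels per length in FPKM on a log axis of the 7 COPI genes (left) and the 10 COPII genes (right) at the 3 stages, 1 line per gene and 1 library per stage. The COPI genes span 104-fold in A-LMSC, 11.9-fold in PM-LMSC and 5.79-fold in M-LMSC, with the GC trend not removed. The lines of Arcn1 and Sec23a climb most steeply from A-LMSC.

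The ER chaperones differed among themselves in direction. Among the 11 genes, PM-LMSC had 5 at least 2-fold above A-LMSC and 3 as far below, and in M-LMSC 5 were higher and 4 lower. Of all genes the shares higher and lower were 35.0% and 25.0% in PM-LMSC and 41.0% and 27.7% in M-LMSC. Trend removal gave 1 higher and 1 lower in PM-LMSC, and 3 higher and 2 lower in M-LMSC. The median log2 ratios were 0.40 and 0.06, and the second changed sign with the scaling, from -0.18 with upper-quartile factors to 0.62 with the library total alone. Hspa5, which encodes BiP, the main ER HSP70, had 74.2 CPM in A-LMSC (95% interval 69.2 to 79.5), 760.5 CPM in PM-LMSC and 672 CPM in M-LMSC. It was low in A-LMSC and within 2-fold between the later libraries, with log2 ratios of 3.34 and 3.16, and 1.66 and 1.20 with the trend removed. Hsp90b1, which encodes the ER HSP90 called GRP94, had 66.2 CPM in A-LMSC, 191 CPM in PM-LMSC and 839.7 CPM in M-LMSC. Canx, which encodes calnexin, a lectin that holds glycoproteins during folding, had 35.3, 151 and 576 CPM. Both were highest in M-LMSC, with log2 ratios to A-LMSC of 1.52 and 3.65 for Hsp90b1 and of 2.07 and 3.99 for Canx. The trend-removed ratios were 1.60 and 1.67 in M-LMSC, while those in PM-LMSC, 0.27 and 0.55, did not reach 2-fold. Dnajc3, a BiP co-chaperone also known as an inhibitor of PERK, had 11.7, 73.2 and 103 CPM. Dnajb9, a BiP co-chaperone also called ERdj4, had 4.44, 12.3 and 30.9 CPM. Their log2 ratios were 2.55 and 3.03 for Dnajc3 and 1.29 and 2.55 for Dnajb9, and none of the 4 reached 2-fold with the trend removed.

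The remaining chaperones were highest in A-LMSC or did not differ by 2-fold. Serpinh1 encodes HSP47, the chaperone of procollagen, and had the highest level per length of the chaperones in A-LMSC, 1811 FPKM. It had 5784 CPM in A-LMSC, 1669 CPM in PM-LMSC and 844 CPM in M-LMSC, with log2 ratios of -1.79 and -2.78. Trend removal brought these to -0.52 and -1.27. Hyou1, an HSP70 relative that acts as a nucleotide exchange factor for BiP, had 452, 232 and 139.9 CPM and log2 ratios of -0.96 and -1.69. Its trend-removed ratios, -1.10 and -1.60, were both past 2-fold. On the FPKM scale, Hspa5 was 0.281 times the level of Hyou1 in A-LMSC, 5.62 times in PM-LMSC and 8.24 times in M-LMSC. Sdf2l1, part of the BiP-DNAJB11 complex, had 125, 26.7 and 34.6 CPM and log2 ratios of -2.18 and -1.82. Creld2 had 206, 94.7 and 68.0 CPM, with log2 ratios of -1.11 and -1.59. Neither reached 2-fold with the trend removed. Manf, a secreted ER stress protein, had 313, 239 and 159 CPM, and Dnajb11, a BiP co-chaperone also called ERdj3, had 168, 223 and 176 CPM. Both lay within 2-fold in every comparison.

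The promoters of the chaperone genes are shown because the ER stress response element (ERSE), read by ATF6 with NF-Y, is the classical motif of this response. RefSeq windows of 300 bases on GRCm38.p6, from 250 bases before to 50 bases after the start, were found for 42 of the 48 genes. The ERSE was searched on both strands as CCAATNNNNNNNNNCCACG. It was present in 0.120% of 32544 promoter windows and in 7 of these 42 genes, or 16.7%. Here and below, the first share counts unique windows and the second counts genes with a match in any window. The genes were listed for this response, so their higher share is not a result of these data. It lay in 5 chaperone genes, in Pdia6 and in Syvn1, and in none of the 6 COPI and 10 COPII promoters searched. The 8 matches are given along the motif with its fixed letters in capitals.
Hspa5: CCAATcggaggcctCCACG
Hsp90b1, farther from the start: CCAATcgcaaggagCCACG
Hsp90b1, nearer to the start: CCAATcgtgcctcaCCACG
Canx: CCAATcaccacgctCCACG
Dnajc3: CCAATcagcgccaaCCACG
Creld2: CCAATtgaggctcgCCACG
Pdia6: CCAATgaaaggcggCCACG
Syvn1: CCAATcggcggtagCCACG
The matches began between 44 and 212 bases before the start, at 65 bases in Hspa5, at 212 and 107 bases in Hsp90b1 and at 44 bases in Syvn1. The 7 genes did not share a direction. Against A-LMSC, Hspa5, Hsp90b1, Canx and Dnajc3 were at least 2-fold higher in both later libraries, Creld2 and Syvn1 were at least 2-fold lower in both, and Pdia6 was 2-fold lower in M-LMSC. The median log2 ratios of the 7 genes were 1.52 and 3.03, and those of the 35 genes without a match were 0.60 and 0.45. The trend-removed medians were 0.27 and 0.50 for the 7 genes and 0.24 and -0.38 for the 35. A match is a string of letters and does not show that the site is bound.

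For Hspa5 and Hsp90b1, which differed in their course from PM-LMSC to M-LMSC, the whole windows are given on the strand of the gene, with the ERSE matches in capitals. The first lies at chr2:34771840-34772139 on the plus strand and the second at chr10:86705395-86705694 on the minus strand.
Hspa5: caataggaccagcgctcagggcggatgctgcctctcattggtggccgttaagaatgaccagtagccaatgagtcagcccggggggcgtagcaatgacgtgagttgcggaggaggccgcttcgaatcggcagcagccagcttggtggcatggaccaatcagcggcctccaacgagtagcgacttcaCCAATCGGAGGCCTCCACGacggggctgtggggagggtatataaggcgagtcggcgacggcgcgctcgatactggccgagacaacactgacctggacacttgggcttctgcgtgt
Hsp90b1: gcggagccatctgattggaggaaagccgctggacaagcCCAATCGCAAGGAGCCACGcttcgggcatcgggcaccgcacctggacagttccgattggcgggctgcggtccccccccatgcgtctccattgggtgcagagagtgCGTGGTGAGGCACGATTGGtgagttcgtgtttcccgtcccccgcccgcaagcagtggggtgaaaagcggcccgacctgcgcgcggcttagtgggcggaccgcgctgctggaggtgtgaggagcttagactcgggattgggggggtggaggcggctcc
Hspa5 has 1 exact match and Hsp90b1 has 2, the nearer of which reads on the opposite strand. Inexact forms of the motif were not searched, and a relation of the number of matches to the ratios was not tested. Between PM-LMSC and M-LMSC the first gene had a log2 ratio of -0.18, and the second had a CPM 4.39-fold higher in M-LMSC (log2 ratio of (CPM + 1) 2.13, and 1.34 with the trend removed).

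A shorter motif was found near the start of several coat genes. TGACGTGG, the core of the unfolded protein response element bound by XBP1 and ATF6, occurred on either strand in 0.682% of promoters and in 5 of the 42 here. These were Copb1, Copb2, Sec23a, Sec24d and Kdelr3. The matches in Sec24d, Copb1, Copb2 and Kdelr3 began between 7 and 30 bases before the start, and that in Sec23a began 6 bases after it. All 4 coat genes exceeded their A-LMSC level by at least 2-fold in both later libraries, and Kdelr3 was not higher in either. Among coat genes searched and without a match, Sec23b, Sec24a, Sec24b, Sar1b and Copa also passed 2-fold in both. Sar1a and Copg1 did so in PM-LMSC alone, and Sec13, Sec24c, Sec31a, Cope and Copz1 in neither. Of all genes, 35.0% passed that mark in PM-LMSC and 41.0% in M-LMSC. A relation of this motif to the ratios was not tested. With the trend removed, Copb1 in PM-LMSC (0.08) and Copb2 in M-LMSC (0.55) were within 2-fold. A related form of the stress element, ATTGGNCCACG, occurred in 0.0369% of promoters and here in Dnajb11 and Herpud1. The C/EBP-ATF element TGATGCAA, read by ATF4 and CHOP, occurred in 0.867% of promoters and here in Chac1 and Herpud1. CCAAT alone, which the ERSE contains, was common, with 37.4% of promoters and 24 of the 42.

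The protein disulfide isomerases were split as the chaperones were. P4hb, which encodes the main isomerase and is also a subunit of collagen prolyl hydroxylase, had 4306 CPM in A-LMSC, 2496 CPM in PM-LMSC and 1641 CPM in M-LMSC. Pdia6 had 798, 736 and 354 CPM. Both were lowest in M-LMSC, with log2 ratios to A-LMSC of -1.39 and -1.17, and -0.39 and -1.84 with the trend removed. Pdia4 went the other way, with 98.3, 388 and 228 CPM and log2 ratios of 1.97 and 1.21, or 0.80 and 0.02 with the trend removed. The 3 genes together took 0.426%, 0.368% and 0.267% of all counts, in the order of the stages.

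The 3 sensors of the unfolded protein response were all at least 2-fold above A-LMSC in both later libraries. Of all genes, 35.0% were so in PM-LMSC and 41.0% in M-LMSC. Ern1, which encodes the kinase and RNase IRE1, had 14.3 CPM in A-LMSC (95% interval 12.2 to 16.7), 115.6 CPM in PM-LMSC and 45.0 CPM in M-LMSC. Eif2ak3, which encodes the kinase PERK, had 7.52 CPM (5.99 to 9.33), 32.5 and 28.5 CPM. Atf6, whose product is cut in the Golgi to release a transcription factor, had 5.35 CPM (4.07 to 6.90), 72.2 and 71.3 CPM. A-LMSC was the low library for each, and Ern1 alone differed by 2-fold between PM-LMSC and M-LMSC. The log2 ratios to A-LMSC were 2.93 and 1.58 for Ern1, 1.97 and 1.79 for Eif2ak3, and 3.53 and 3.51 for Atf6. The trend-removed ratios were 1.90 and 0.66, 1.52 and 1.58, and 1.32 and 0.92. Eif2ak3 has a GC content of 51.2%, near the median, and its ratios moved little.

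The transcription factors downstream of the sensors did not follow them. Xbp1, spliced by IRE1, had 223, 185 and 99.9 CPM, and only the M-LMSC ratio, -1.15, reached 2-fold, which it no longer did with the trend removed (-0.27). The counts per gene do not separate its spliced and unspliced forms. Atf4, which is controlled mainly by translation, had 316, 289 and 177 CPM. Ddit3, which encodes CHOP, had 29.5 CPM in A-LMSC (95% interval 26.3 to 32.8), 34.2 CPM in PM-LMSC (31.1 to 37.6) and 30.0 CPM in M-LMSC (27.5 to 32.7). The log2 ratios of Ddit3 to A-LMSC were 0.21 and 0.03, both within 2-fold. The 95% counting intervals of the ratio of CPM ran from 0.006 to 0.43 in PM-LMSC and from -0.18 to 0.23 in M-LMSC. With the trend removed, Atf4 had ratios of 1.08 and 0.57 and Ddit3 of -1.09 and -1.75, so the place of both relative to 2-fold depended on that step.

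Trib3 and Chac1, which ATF4 and CHOP induce under stress, were at least 2-fold lower in both later libraries. Of all genes, 25.0% were as much lower in PM-LMSC and 27.7% in M-LMSC. Among stress response factors outside the set, 5 of 14 measured were at least 2-fold higher and 6 lower in PM-LMSC. In M-LMSC, 5 of 15 were higher and 5 lower. Trib3, a pseudokinase, had 88.6 CPM in A-LMSC, 7.97 CPM in PM-LMSC (6.50 to 9.67) and 16.0 CPM in M-LMSC (14.2 to 18.0). Chac1, which degrades glutathione, had 56.3, 9.61 and 9.98 CPM. The log2 ratios were -3.32 and -2.40 for Trib3, and -2.43 and -2.38 for Chac1. Both transcripts are rich in GC, at 58.2% and 57.4%. With the trend removed, Trib3 remained past 2-fold in PM-LMSC, at -1.82, and the other ratios were -0.73 for Trib3 in M-LMSC and -0.99 and -0.80 for Chac1.

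**Figure D4:**
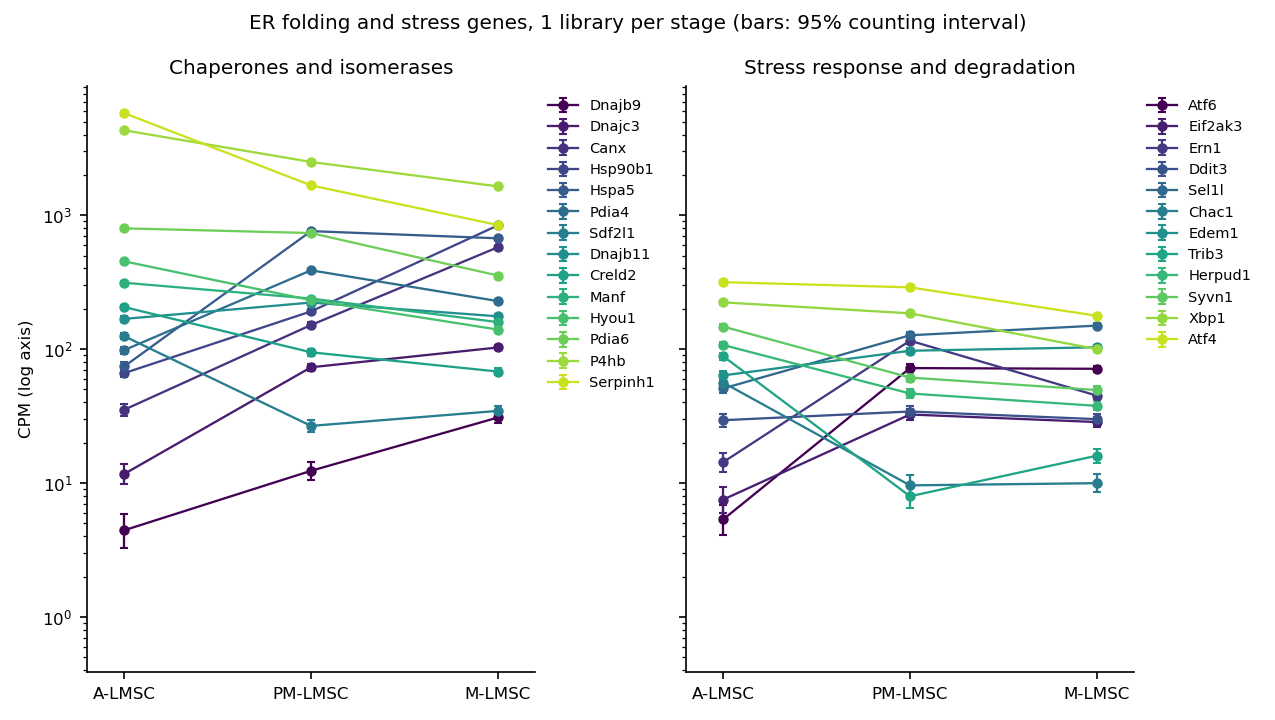
CPM on a log axis of the chaperones and isomerases (left) and of the stress response and degradation genes (right) at the 3 stages, with 95% counting intervals as bars and 1 library per stage. Between A-LMSC and PM-LMSC the line of Hspa5 goes from 74.2 to 760.5 CPM and that of Serpinh1 from 5784 to 1669 CPM, and Ddit3 lies between 29.5 and 34.2 CPM at all stages while Trib3 goes from 88.6 to 7.97 CPM.

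In ER-associated degradation, the partners of one ligase complex went opposite ways. Sel1l, the adaptor, had 50.9 CPM in A-LMSC, 127 CPM in PM-LMSC and 149.9 CPM in M-LMSC. Syvn1, the ubiquitin ligase HRD1 that it holds, had 147, 61.3 and 49.5 CPM. Sel1l was thus lowest and Syvn1 highest in A-LMSC, with log2 ratios of 1.30 and 1.54 against -1.25 and -1.56. Trend removal ended the opposition, with -0.61 and -0.50 for Sel1l and -0.37 and -0.42 for Syvn1. Herpud1, which recruits the ligase and is induced by ER stress, had 107, 46.6 and 37.7 CPM and log2 ratios of -1.19 and -1.48, which came to -0.50 and -0.60 with the trend removed, within 2-fold. Edem1, which trims mannose on misfolded glycoproteins, had 63.6, 97.3 and 103 CPM and stayed within 2-fold, but had -1.48 and -1.69 with the trend removed.

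The translocon genes showed the same contrast before trend removal. Sec61a1, the channel subunit, had 991 CPM in A-LMSC, 647 CPM in PM-LMSC and 222 CPM in M-LMSC. Sec61b, the small beta subunit, had 124, 81.1 and 35.4 CPM. Both were lowest in M-LMSC, with log2 ratios to A-LMSC of -2.15 and -1.78 and to PM-LMSC of -1.54 and -1.17. Ssr1, a subunit of the translocon-associated TRAP complex, had 90.6, 284 and 202 CPM, with log2 ratios to A-LMSC of 1.64 and 1.15. These turned to -0.60 and -1.77 with the trend removed, while in M-LMSC Sec61a1 remained past 2-fold at -1.22 and Sec61b, at -0.48, did not. On the FPKM scale, without trend removal, Ssr1 was 0.102 times the level of Sec61a1 in A-LMSC, 0.489 times in PM-LMSC and 1.01 times in M-LMSC. With the trend removed, Ssr1 had lower ratios to A-LMSC than Sec61a1, at -0.60 against 0.05 in PM-LMSC and -1.77 against -1.22 in M-LMSC.

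KDEL receptors return chaperones that carry the KDEL signal, BiP among them, to the ER. Kdelr2 had 341 CPM in A-LMSC, 257 CPM in PM-LMSC and 125 CPM in M-LMSC. Kdelr3 had 283, 219 and 129 CPM. Both were lowest in M-LMSC, with log2 ratios to A-LMSC of -0.40 and -1.44 for Kdelr2 and of -0.37 and -1.13 for Kdelr3. On the trend-removed scale, Kdelr2 had -1.46 and -2.59, the lowest value of the 48 genes in M-LMSC, and Kdelr3 had -0.18 and -0.81. On the FPKM scale, Kdelr2 was 17.4 times the level of Hspa5 in A-LMSC, 1.29 times in PM-LMSC and 0.707 times in M-LMSC.

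The step from PM-LMSC to M-LMSC does not involve A-LMSC. The 4 genes at least 2-fold higher in M-LMSC were Copb1 (log2 ratio 2.34), Hsp90b1 (2.13), Canx (1.92) and Dnajb9 (1.26). The 5 genes at least 2-fold lower were Sec61a1 (-1.54), Ern1 (-1.34), Sec61b (-1.17), Pdia6 (-1.05) and Kdelr2 (-1.04). With the trend removed, Copb1, Hsp90b1 and Canx remained at least 2-fold higher and Sec61a1, Ern1, Sec61b and Kdelr2 at least 2-fold lower, while Dnajb9 (0.27) and Pdia6 (-0.93) came within 2-fold. Trib3 (1.05) came past 2-fold on the higher side on that scale, and Sec23b (-1.44) and Ssr1 (-1.10) on the lower side. Before trend removal, the 10 COPII genes all lay within 2-fold in this step, as did 9861 of the 13181 genes measured. The summed level of the 8 epithelial markers was 74.8 CPM in PM-LMSC and 1224 CPM in M-LMSC, and its part in these 9 differences was not tested.

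Of the 48 genes, 8 stayed within 2-fold in all 3 comparisons, namely Dnajb11, Manf, Atf4, Ddit3, Edem1, Sec24c, Sec31a and Copz1. How many of all genes did so was not counted. In the single comparisons 5088 of 12727 genes (PM-LMSC against A-LMSC), 4139 of 13223 (M-LMSC against A-LMSC) and 9861 of 13181 (M-LMSC against PM-LMSC) were within 2-fold. With the trend removed, Atf4 in PM-LMSC (1.08), and Ddit3 (-1.09 and -1.75) and Edem1 (-1.48 and -1.69) in both later libraries, were past 2-fold against A-LMSC. As a whole the 48 genes took 1.43%, 1.43% and 1.26% of all counts, in the order of the stages. Scaled by the TMM factors, their levels summed to 17440, 14095 and 10472 CPM. In A-LMSC, Serpinh1 gave 63809 and P4hb 47501 of their 192412 counts.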

How the data were processed

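RNA-seq was done on total RNA of 3 LMSC libraries, 1 per stage, assigned by the labels. TopHat2 2.0.9 and the mm10 build are named in the submitters' processing notes. Which counting program, gene annotation and strand setting were used is not given in the sources used here. The authors deposited whole-number counts per gene and FPKM, which are scaled by length and library total alone. Of 34748 lines, 6 incomplete lines from 3 genes were left out. CPM were computed from the counts with TMM factors (edgeR 4.0.16, R 4.3.3), with a pseudocount of 1 and a minimum of 1 CPM in the higher library. No test was run, since each stage has 1 library. Levels carry exact Poisson 95% intervals, and ratios of CPM without a pseudocount carry exact conditional intervals.

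GC content and length were taken from the longest GENCODE M21 transcript, and their trend was fitted by lowess (span 0.3) on measured protein-coding genes. The scripts used scipy 1.17.1, statsmodels 0.14.6, numpy 2.4.6 and pandas 2.3.3 in Python 3.11.15, with plots by matplotlib 3.10.9. Promoters came from RefSeq on GRCm38.p6. The ratios and the trend step were tested on simulated data. The alternatives tried were other pseudocounts (0.1 and 5), scalings (DESeq2 1.42.0 median of ratios, upper quartile, library total, deposited FPKM, median of all genes), minimums (none and 5 CPM) and the trend removed. The members and gene lists were chosen with earlier results of these data known. All 48 genes are named. Of 87 other pathway genes, the 3 highest and 3 lowest ratios of each comparison with A-LMSC are named, and cell types by fixed markers.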

Additional observations from a re-analysis of the deposited data

How the results depend on the processing

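Each stage had 1 library, so no library could be left out and no paired analysis was possible because no stage has a replicate. Of 78 calls of a member at 2-fold over the 3 comparisons, pseudocounts of 0.1 and 5 kept 78 and 77, and changing the minimum kept all 78. Median-of-ratios factors kept 77, upper-quartile factors 76, centring on the median of all genes 75, the library total alone 65, the deposited FPKM 62 and removing the GC content and length trend 34. The median of the members in PM-LMSC against A-LMSC was 0.32 with median-of-ratios factors, 0.27 with upper-quartile factors, 0.81 with the library total alone, 0.75 with FPKM, 0.20 with the trend removed and 0.31 relative to all genes. In M-LMSC against A-LMSC it was 0.13, 0.082, 0.87, 0.83, -0.37 and -0.016, in that order, so its sign depends on the scaling. Between PM-LMSC and M-LMSC it was -0.16 with the library total alone and with FPKM. The library total alone gave 5, 10 and 2 members at least 2-fold lower in PM-LMSC against A-LMSC, M-LMSC against A-LMSC and M-LMSC against PM-LMSC, and FPKM gave 5, 9 and 1. With the trend removed, 12 members were higher in PM-LMSC than in A-LMSC, and 9 were higher and 10 lower in M-LMSC. Calls that changed sign with the trend removed were Sel1l (-0.61 in PM-LMSC and -0.50 in M-LMSC), Ssr1 (-0.60 and -1.77), Copg1 in PM-LMSC (-0.38) and Sec23b in M-LMSC (-0.67). The median of all genes, 0.19 and 0.34 against A-LMSC, was 0.47 and 0.83 with the library total alone and -0.04 and 0.10 with upper-quartile factors. The cause of these shifts was not tested. Depth limits the low genes most, Sec24a with 31 counts and Dnajb9 with 49 counts in A-LMSC.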

Other observations

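The wider pathway was read from 87 further genes, all found, with 84 to 85 measured in each comparison. In PM-LMSC 33 were at least 2-fold higher than in A-LMSC and 26 lower, and in M-LMSC 33 were higher and 32 lower. That is 39.3% and 31.0% in PM-LMSC and 38.8% and 37.6% in M-LMSC, beside 35.0% and 25.0%, and 41.0% and 27.7%, of all genes. Their median log2 ratios were 0.47 and -0.04, beside 0.19 and 0.34 for all genes. The highest in PM-LMSC were Stt3a, a catalytic subunit of oligosaccharyltransferase (40.8, 506 and 292 CPM, in the order of the stages), Uggt1, which returns misfolded glycoproteins to calnexin (19.9, 248 and 191 CPM), and Copg2, the other gamma subunit of COPI (1.18, 23.7 and 47.2 CPM). Their log2 ratios in PM-LMSC were 3.60, 3.58 and 3.50, and 2.10, 1.94 and 1.79 once the trend with GC content and length was subtracted. The lowest in PM-LMSC were stress-response genes, Cebpb (531.5, 27.7 and 147 CPM, log2 ratio -4.22), Ddit4 (-2.57) and Sesn2 (-2.02). With the trend removed these were -2.14, -1.08 and -0.80.

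In M-LMSC the highest were Copg2 (log2 ratio 4.47), Edem3, a mannosidase of glycoprotein degradation (1.45, 10.5 and 49.6 CPM, 4.37), and Golgb1, a Golgi tether (3.72, 8.98 and 90.2 CPM, 4.27). They remained past 2-fold with the trend removed, at 2.28, 1.61 and 2.69. The lowest were Creb3l1, an ER-bound transcription factor of collagen-secreting cells (349, 130.1 and 57.7 CPM, log2 ratio -2.58), Fkbp10, a collagen chaperone (1172, 440.4 and 219 CPM, -2.41), and Kdelr1, the remaining KDEL receptor (403, 147 and 80.8 CPM, -2.30). Of these only Kdelr1 stayed past 2-fold with the trend removed, at -1.49, beside -0.88 for Creb3l1 and -0.83 for Fkbp10. Copg2, like Arcn1, was lowest in A-LMSC, and Kdelr1, like Kdelr2 and Kdelr3, was lowest in M-LMSC.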
